A study of Mus musculus with 12 samples.

Results

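Zfp genes encode zinc finger proteins, and the genes described here are those whose mouse symbol is Zfp followed only by digits and whose mean RNA-seq level was at least 1 FPKM, a unit that scales reads by the length of the transcript and the size of the library, over the 6 RNA-seq libraries. The rule kept 160 of 323 such symbols, out of 28643 symbols measured. The values that chose them, the RNA-seq levels, are given below as a description. Just inside the limit were Zfp935 (1.01 FPKM) and Zfp27 (1.01 FPKM), and just outside it Zfp655 (0.996 FPKM) and Zfp82 (0.990 FPKM).

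A zinc finger is a short fold in which a pair of cysteines and a pair of histidines hold a zinc ion, and fingers repeated in a row read DNA bases. In many mammalian members a KRAB domain ahead of the fingers recruits the corepressor Trim28 and with it histone methylation, which is known for keeping retroelements and imprinted loci silent. Other members have fingers that bind RNA or proteins and act in splicing, ribosome assembly or ubiquitin transfer.

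The cells were round spermatids, the haploid cells that follow meiosis, sorted by flow cytometry with cycloheximide present, from males 8 weeks old. Controls carried a single intact copy of Igf2bp3 (Igf2bp3+/-, named WT in the deposited table) and knockouts none (Igf2bp3-/-, a Cas9-made frameshift in the body of every animal), so that no wild-type mouse entered the comparison. Fertility varied between knockout males, and the study picked those of impaired fertility for this part of its work. The knockouts therefore do not stand for all Igf2bp3-/- males. Each genotype was measured with 3 replicates of RNA-seq (total input) and 3 of RNC-seq (mRNA bound by 4 or more ribosomes, from the heavy fractions of a sucrose gradient), 12 libraries in all. Per the study's methods, cells were isolated from each mouse, a small part of each extract served as input and the rest went onto the gradient, and the replicates are biological. The labels tie no library to a mouse, so p-values measure the spread between these samples.

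Depth, read from the lowest values of the table, was about 18600000 to 26900000 fragments in 11 libraries and about 49000000 in Igf2bp3-/- RNA-seq replicate 1. In RNA-seq the 8 markers of round spermatids summed to between 1121 and 1232 FPKM in Igf2bp3+/- and to between 1399 and 1591 FPKM in Igf2bp3-/-, with 0 of 8 past the limma test, and markers of spermatogonia summed to at most 10.4 FPKM. The 8 spermatocyte markers summed to between 338 and 353 FPKM in Igf2bp3+/- and between 334 and 396 FPKM in Igf2bp3-/-. For the 6 markers of elongating spermatids it was 8421 to 10867 against 9444 to 9561 FPKM. Like those of round spermatids, sums stood apart between the genotypes in RNA-seq for markers of Sertoli cells (3.45 to 4.32 against 7.13 to 7.95 FPKM), peritubular cells (1.72 to 2.13 against 4.46 to 5.74 FPKM) and blood cells (4.45 to 5.47 against 10.2 to 11.2 FPKM). The largest rises in group mean in these lists were of Clu (3.12 to 6.69 FPKM), Dcn (0.871 to 3.88 FPKM) and Hbb-bs (2.69 to 6.38 FPKM). Means of Rhox5 (Sertoli) and of Myh11 and Cnn1 (peritubular) were lower in Igf2bp3-/-. Of the markers tested, 1 of 4, 1 of 4 and 2 of 6 passed the limma test. The 6 Leydig cell markers, none of them with a group mean of 0, summed to between 15.7 and 23.8 FPKM in Igf2bp3+/- RNA-seq and to between 52.3 and 58.3 FPKM in Igf2bp3-/- RNA-seq, and to between 7.54 and 15.4 against 56.2 and 107 FPKM in RNC-seq; 4 of the 6 passed the test in RNA-seq and 2 in RNC-seq. Igf2bp3 transcript was not lower by the test in Igf2bp3-/- (31.4 to 32.5 against 33.4 to 38.6 FPKM, limma adjusted p = 0.335), and a frameshift need not lower it. Among the RNC-seq libraries, Igf2bp3-/- replicate 2 correlated least with the others. It was the highest of its group for 68 of the 160 Zfp genes (33.0% of all genes) and for all 10 of the most abundant.

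A single finger and the linker joining it to the next are shown for 7 members, to make visible how alike the repeated unit is. They are among those that turned out lowest, highest or most abundant and matched a set pattern of the pairs and linker. No such match was found in Zfp644, Zfp451 or Zfp646. That of Zfp219, which spans exons 5 and 6, is not printed. Each run is 81 bases of coding sequence from GRCm38, 5′ to 3′ on the gene's strand, with the codons of the cysteine and histidine pairs in capitals. Zfp981 is read at chr4:146537340-146537420 and Zfp982 at chr4:147512581-147512661, both on the plus strand. Zfp445 is read at chr9:122852889-122852969 and Zfp560 at chr9:20348644-20348724, both on the minus strand. Zfp87 is read at chr13:67517931-67518011 and Zfp39 at chr11:58890624-58890704, both on the minus strand, and Zfp637 at chr6:117845270-117845350 on the plus strand. All 7 lie in the last exon of the transcript used.
Zfp981: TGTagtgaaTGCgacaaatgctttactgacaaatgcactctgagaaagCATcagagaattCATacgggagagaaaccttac
Zfp982: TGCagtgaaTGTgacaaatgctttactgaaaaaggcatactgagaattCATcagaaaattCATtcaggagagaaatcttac
Zfp445: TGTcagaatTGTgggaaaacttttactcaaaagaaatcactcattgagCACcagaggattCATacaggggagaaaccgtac
Zfp87: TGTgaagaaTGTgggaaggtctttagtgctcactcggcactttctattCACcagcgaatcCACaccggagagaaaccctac
Zfp560: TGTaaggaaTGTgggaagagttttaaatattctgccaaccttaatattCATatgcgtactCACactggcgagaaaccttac
Zfp637: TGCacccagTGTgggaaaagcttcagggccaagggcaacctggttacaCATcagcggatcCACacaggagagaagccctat
Zfp39: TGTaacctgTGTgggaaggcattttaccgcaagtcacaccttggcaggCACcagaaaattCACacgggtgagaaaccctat

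The Zfp981 and Zfp982 fingers shared 69 of 81 bases. The Zfp981 finger shared 53 of 81 bases with that of Zfp445 and 49 of 81 with that of Zfp560. Between Zfp39 and Zfp982 it was 43 of 81. The pattern searched set the spaced cysteines and histidines and the main residues of the linker, so that all 7 have these in common by choice.

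Of the 160 genes, 157 had an open reading frame in the transcript used. Their proteins were 76 (Zfp706) to 2246 residues long with a median of 579, and they held 0 to 30 fingers with a median of 9, when a finger is counted as 2 cysteines 2 or 4 residues apart, 12 residues and then 2 histidines 3 to 5 residues apart. Zfp236 had 30 fingers, and Zfp646 and Zfp423 had 27 each. Zfp474, Zfp330, Zfp185 and Zfp935 had 0 by this pattern. The linker of the usual sequence stood in 110 of the 157. A KRAB-like pattern was found in 52 of the 157 and a SCAN-like pattern, which marks a protein-binding domain, in 7 (Zfp110, Zfp202, Zfp263, Zfp397, Zfp444, Zfp445 and Zfp446). The KRAB-like pattern is strict and misses genes with a diverged domain, so that 52 is a lower count. Zfp125 and Zfp572 are annotated as pseudogenes, and the annotated frame of Zfp707 does not start at a start codon.

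Chromosome 7 carried 40 of the 160 genes, chromosome 4 carried 14 and chromosome 17 carried 13. With neighbours joined when less than 1 Mb apart, 70 genes stood in 16 clusters of 3 or more, and 70 stood alone. The largest clusters held 7 genes each, on chromosome 4 (146449023 to 147848366) and on chromosome 7 (24081924 to 25227507). All 7 of the chromosome 4 cluster had the KRAB-like pattern and 0 of the 7 on chromosome 7. Zfp991, Zfp992 and Zfp993 on chromosome 4 are near-identical copies, as are Zfp58, Zfp59, Zfp593 and Zfp935 with other genes, and the FPKM of these 7 are uncertain because reads can be shared between copies.

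Levels in RNA-seq were low for most members. The median of the 160 mean levels was 3.73 FPKM, 98 genes lay below 5 FPKM and 23 at 20 FPKM or more, and 10 genes held 44.5% of the summed FPKM of all 160. In order of mean level these were Zfp451, Zfp646, Zfp39, Zfp37, Zfp110, Zfp541, Zfp474, Zfp956, Zfp574 and Zfp35. None of the 160 was at 0 in any library. The median over genes of the replicate coefficient of variation was 11.3% in Igf2bp3+/- and 9.82% in Igf2bp3-/- RNA-seq, and 19.4% and 21.9% in RNC-seq.

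In RNA-seq Zfp451, a SUMO ligase, had 156, 163 and 180 FPKM in Igf2bp3+/- and 147, 156 and 158 FPKM in Igf2bp3-/-. In RNC-seq it was at 90.3, 90.5 and 110 FPKM in Igf2bp3+/- and at 109, 138 and 97.6 FPKM in Igf2bp3-/-. Every RNC-seq value of Zfp451 lay below every RNA-seq value, and the genotypes overlapped in both assays.

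Zfp646 was at 125, 152 and 151 FPKM in Igf2bp3+/- and 127, 132 and 109 FPKM in Igf2bp3-/- RNA-seq, a range that overlapped that of Zfp451. Its RNC-seq values were 50.3, 68.0 and 75.2 FPKM in Igf2bp3+/- and 66.8, 132 and 62.9 FPKM in Igf2bp3-/-, where replicate 2 stood apart from the other two. Zfp39 followed at 90.7 to 103 FPKM in RNA-seq, and its range overlapped neither Zfp646 above it nor Zfp37 below it. Zfp37, Zfp110, Zfp541 and Zfp474 overlapped from each to the next, as did Zfp956 with Zfp574, while Zfp474 lay apart from Zfp956 and Zfp574 from Zfp35.

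Several of the abundant genes are known from male germ cells. Of the 10 genes listed for this role, 9 were in the table and 8 were members. Zfp39 (mean 96.5 FPKM in RNA-seq), Zfp37 (68.5 FPKM) and Zfp35 (40.9 FPKM) are long known as zinc finger genes of the male germ line, and Zfp105 stood beside them at 39.4 FPKM. Zfp541, which acts with histone deacetylases in meiotic exit, was at 59.8, 73.4 and 79.0 FPKM in Igf2bp3+/- RNA-seq and 65.6, 69.9 and 55.4 FPKM in Igf2bp3-/-. Zfp474, a gene expressed in testis, was at 62.0, 62.6 and 64.5 FPKM in Igf2bp3+/- and 62.1, 62.8 and 72.2 FPKM in Igf2bp3-/-, and it was the one of the 10 most abundant whose RNC-seq level (70.3 to 89.4 FPKM) was above its RNA-seq level on average in both genotypes. Zfp42, better known as the stem cell marker Rex1, averaged 3.88 FPKM and Zfp318, a nuclear protein that is also abundant in testis, 6.90 FPKM.

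**Figure D1:**
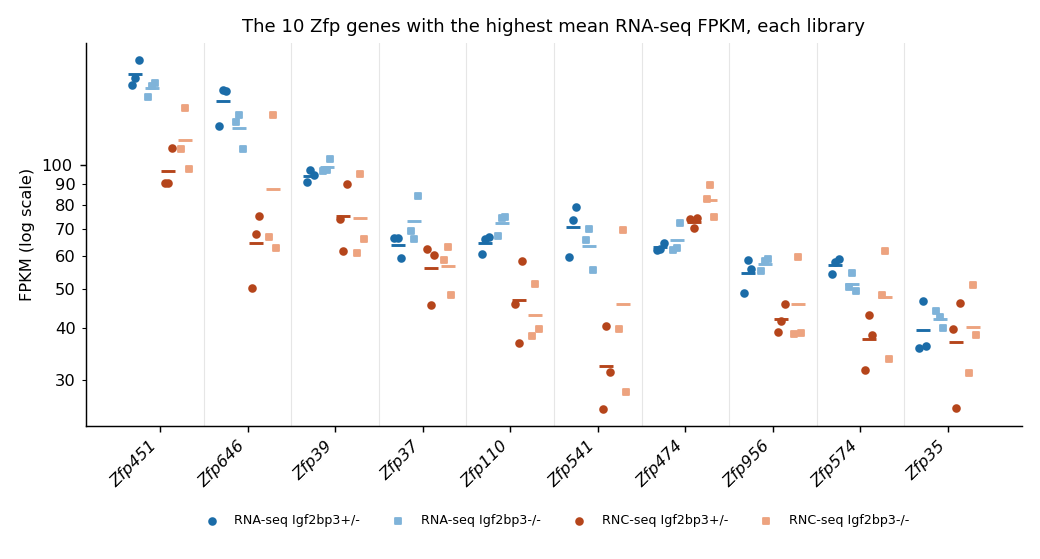
FPKM on a log axis for the 10 Zfp genes with the highest mean RNA-seq level, with a point for each library (3 a group), a short bar for the group mean, circles for Igf2bp3+/- and squares for Igf2bp3-/-, RNA-seq in blue and RNC-seq in orange. The RNC-seq points of Zfp451, Zfp646 and Zfp541 lie mostly below their RNA-seq points, those of Zfp474 above them, and the highest square in RNC-seq is replicate 2 for all 10 genes.

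Genotype was compared first in RNA-seq, which asks whether the transcripts of these genes differ in abundance without IGF2BP3, an RNA-binding protein. None of the 160 passed the test (limma, Benjamini-Hochberg adjusted p under 0.05), against 52 of 20352 genes tested, or 0.256%. At an unadjusted p under 0.05 there were 11 members higher in Igf2bp3-/- (10.4% of all genes) and 4 lower (5.32% of all genes), which is 6.88% and 2.5% of the members. The median log2 difference of the 160 was 0.00 against 0.05 over all genes tested, and the members ran from -0.67 to 0.64.

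Zfp318 had the smallest p in RNA-seq, with 9.94, 9.07 and 6.62 FPKM in Igf2bp3+/- and 5.59, 4.95 and 5.22 FPKM in Igf2bp3-/-. The groups of Zfp318 did not overlap, and its log2 difference was -0.67 ± 0.16 (SE, limma adjusted p = 0.163). Zfp219, a transcription factor that works with SOX9 in cartilage, had 15.6, 11.0 and 12.5 FPKM in Igf2bp3+/- and 10.5, 7.04 and 8.37 FPKM in Igf2bp3-/-. Its log2 difference of -0.59 ± 0.18 (SE) had a limma adjusted p of 0.207, and Zfp426 followed at -0.54 ± 0.17 (SE).

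On the other side stood Zfp809, which is known for silencing murine leukemia viruses in embryonic cells. It was at 2.41, 2.86 and 2.25 FPKM in Igf2bp3+/- and at 3.17, 4.14 and 3.87 FPKM in Igf2bp3-/- RNA-seq, so that the groups did not overlap, with a log2 difference of 0.55 ± 0.16 (SE) and a limma adjusted p of 0.199. Zfp644 (0.53 ± 0.17, SE) and Zfp13 (0.31 ± 0.10, SE) came next, with limma adjusted p of 0.223 and 0.216. Zfp644 moved to 0.35 without Igf2bp3+/- replicate 3, and Zfp13 to 0.21 with quantile normalization. Summed markers of round spermatids and of the somatic cells of the testis were also higher in the Igf2bp3-/- libraries, as given above, and their part in these differences was not tested.

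In RNC-seq the comparison asks the same of transcripts on heavy polysomes. None of the 160 passed the limma test, against 22 of 19051 genes tested, or 0.115%. At an unadjusted p under 0.05 there were 6 members higher in Igf2bp3-/- (5.36% of all genes) and 2 lower (1.12% of all genes), or 3.75% and 1.25% of the members. The median log2 difference was 0.09 for the members and 0.13 for all genes tested.

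Zfp652, a transcriptional repressor, had the largest estimate, with 0.177, 0.714 and 0.246 FPKM in Igf2bp3+/- and 0.979, 1.63 and 0.929 FPKM in Igf2bp3-/- RNC-seq. The groups did not overlap, and the log2 difference was 1.54 ± 0.43 (SE, limma adjusted p = 0.595), which a pseudocount of 1 in place of 0.1 reduced to 0.67. Of the exon bases of Zfp652, 11.8% are shared with Phospho1 on the same strand and 19.3% with Abi3 on the other strand, where reads cannot be told apart unless counting used strand. Zfp513 was at 1.81, 2.57 and 1.63 against 3.18, 3.55 and 4.05 FPKM, a log2 difference of 0.83 ± 0.27 (SE) with no overlap.

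Zfp687, which forms a complex with ZMYND8 and ZFP592 at chromatin, was at 3.72, 5.00 and 5.21 FPKM in Igf2bp3+/- and at 7.68, 16.6 and 5.46 FPKM in Igf2bp3-/- RNC-seq. Its log2 difference of 0.93 ± 0.36 (SE) became 0.48 without Igf2bp3-/- replicate 2. Zfp563 was lower in Igf2bp3-/- (3.33, 2.91 and 3.56 against 2.22, 1.87 and 1.90 FPKM), with a log2 difference of -0.68 ± 0.24 (SE). The limma adjusted p of Zfp513, Zfp687 and Zfp563 were 0.654, 0.740 and 0.735, and those of Zfp938 (-0.77) and Zfp54 (-0.54), the next with lower values, were 0.767 and 0.777. Zfp938 moved to -0.49 without Igf2bp3-/- replicate 2 and to -0.48 with a pseudocount of 1.

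Translational efficiency (TE) is the RNC-seq level relative to the RNA-seq level, and its difference between genotypes was fitted as the interaction of genotype and assay over the 12 libraries. None of the 160 passed the limma test, against 1 of 18414 genes tested, or 0.00543%. At an unadjusted p under 0.05 there were 11 members with higher TE in Igf2bp3-/- (5.54% of all genes) and 3 with lower TE (1.58% of all genes), or 6.88% and 1.88% of the members. By the ratio of mean FPKM, without a test, 28 members had a TE more than 1.5-fold higher in Igf2bp3-/- and 6 a TE more than 1.5-fold lower, which is 17.5% and 3.75% of members against 18.6% and 8.45% of all genes.

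The largest TE difference was that of Zfp652, at 1.92 ± 0.51 (SE) on the log2 scale with a limma adjusted p of 0.686, and at 0.87 with a pseudocount of 1. Zfp687 was at 1.34 ± 0.45 (SE) and Zfp446 at 0.87 ± 0.31 (SE), with the same limma adjusted p of 0.686, and Zfp446 moved to 0.55 with a pseudocount of 1. Zfp809 had the lowest value, -1.05 ± 0.28 (SE). It was at 5.29, 3.55 and 5.04 FPKM in Igf2bp3+/- RNC-seq and at 3.37, 2.76 and 3.55 FPKM in Igf2bp3-/- RNC-seq, where the lowest Igf2bp3+/- library and the highest Igf2bp3-/- library were level, while its RNA-seq values went the other way. Its limma adjusted p was also 0.686, and Zfp563 (-0.87) and Zfp54 (-0.69) came next on that side.

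**Figure D2:**
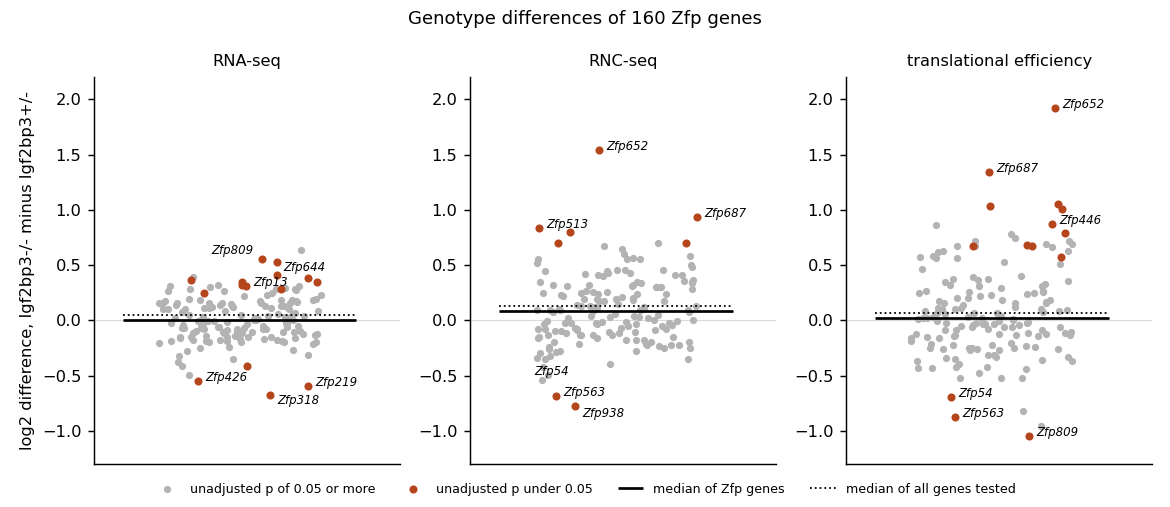
Log2 difference between genotypes (Igf2bp3-/- minus Igf2bp3+/-) of each of the 160 Zfp genes in RNA-seq, RNC-seq and TE, with points spread sideways for legibility, orange for an unadjusted p under 0.05, a solid line for the median of the 160 and a dotted line for that of all genes tested. Most points lie within 0.5 of 0, Zfp652 stands highest in RNC-seq and TE, and no gene passed at an adjusted p under 0.05.

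Loading on heavy polysomes was then described within each genotype, as the log2 difference of RNC-seq minus RNA-seq, which asks which of the transcripts are held off or drawn onto polysomes in round spermatids. The value is relative to all other transcripts of the library and not an absolute share of the mRNA. In Igf2bp3+/-, 58 of the 160 genes were lower in RNC-seq and 16 higher (limma adjusted p under 0.05), which is 36.2% and 10.0% of the members. Of all 18414 genes tested 25.2% were lower and 18.2% higher, and of those with a mean RNA-seq level of at least 1 FPKM, as the members have, 31.3% were lower and 23.7% higher. The median log2 loading was -0.24 for the members and -0.10 for all genes. Centring each library on its median raised the median of all genes by about 0.09 and gave 54 members lower and 24 higher, 69.2% of calls lower in place of 78.4%. Of all genes 22.8% were then lower and 22.9% higher, 49.9% of calls lower in place of 58.1%.

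In Igf2bp3-/-, 29 members were lower and 9 higher by the same test, against 11.0% and 10.2% of all genes, with a median of -0.30 for the members and -0.04 for all genes. That count rested on single libraries: it was 34 in both directions without replicate 2 but 0 without replicate 1 and 0 without replicate 3, so that every single-gene call in Igf2bp3-/- given below was lost in those fits of fewer libraries. In Igf2bp3+/- the count of 74 in both directions became 43, 59 and 47 without replicates 1, 2 and 3. Of the 160 genes, 27 were lower in both genotypes (9.84% of all genes) and 7 higher in both (8.8% of all genes), and 0 were called in opposite directions. The median loading of the 160 was -0.24, -0.54 and -0.15 when the Igf2bp3+/- libraries were taken by number, and -0.22, -0.10 and -0.39 for Igf2bp3-/-.

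The members were chosen on the RNA-seq libraries that also stand in the denominator of the loading, so that loading is not independent of the rule. When the members were instead chosen on the RNA-seq libraries of the other genotype, 56 were lower and 16 higher in Igf2bp3+/-, and 29 and 9 in Igf2bp3-/-. Members of 1 to 2, 2 to 5, 5 to 20 and 20 or more FPKM had median loadings of -0.56, -0.30, -0.19 and -0.08 in Igf2bp3+/-. In Igf2bp3-/- the medians of the same classes were -0.33, -0.30, -0.35 and -0.11. At this depth most members rested on enough fragments to be read: the lowest RNC-seq library held under 20 fragments by approximation for 5 of the 160.

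Zfp219 had the lowest loading of the 160 in Igf2bp3+/-, and Zfp981 and Zfp982 lay below it in Igf2bp3-/-. Its 3 Igf2bp3+/- libraries had 15.6, 11.0 and 12.5 FPKM in RNA-seq and 1.20, 1.99 and 1.01 FPKM in RNC-seq, a log2 loading of -3.17 ± 0.26 (SE, limma adjusted p = 9.51e-05). In Igf2bp3-/- it went from 10.5, 7.04 and 8.37 FPKM to 2.18, 2.66 and 1.10 FPKM, a loading of -2.14 ± 0.31 (SE, limma adjusted p = 0.00356). Assays did not overlap in either genotype. Of its exon bases, 12.7% are shared with Tmem253 on the other strand.

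Zfp981 and Zfp982, both of the chromosome 4 cluster, followed with the 2 fingers shown first above. Zfp981 was at 1.20, 1.44 and 1.51 FPKM in Igf2bp3+/- RNA-seq and 0.212, 0.164 and 0.0447 FPKM in RNC-seq, a loading of -2.69 ± 0.34 (SE, limma adjusted p = 0.000519). Zfp982 was at 1.78, 1.56 and 1.61 FPKM against 0.110, 0.222 and 0.288 FPKM, a loading of -2.55 ± 0.29 (SE, limma adjusted p = 0.000336). Both values were matched in Igf2bp3-/-, at -2.71 ± 0.36 (SE) for Zfp981 and -2.49 ± 0.27 (SE) for Zfp982. The RNC-seq values of both rest on about 2 to 12 fragments a library, so that the size of the difference is poorly determined, and with a pseudocount of 1 it shrank to -1.07 and -1.14 in Igf2bp3+/-.

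The low loading of Zfp981 and Zfp982 was not shared by every gene of their cluster. Zfp991 was also lower (-1.08 ± 0.31, SE), as far as its reads can be told from its copies, whereas Zfp979, Zfp992, Zfp993 and Zfp933 did not pass the test in Igf2bp3+/-, with loadings of -0.72, 0.05, -0.10 and 0.45. In the chromosome 7 cluster Zfp574 (-0.61) and Zfp526 (-1.10) were lower, Zfp428 (0.33) was higher, and Zfp61, Zfp93, Zfp94 and Zfp180 lay between -0.31 and -0.01 without passing.

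The rest of the 8 lowest in Igf2bp3+/- were Zfp184 (-2.06), Zfp687 (-1.90), Zfp445 (-1.86), Zfp800 (-1.79) and Zfp106 (-1.71), with limma adjusted p between 0.000132 and 0.000962, and Zfp184 moved to -0.99 with a pseudocount of 1. Zfp445, a keeper of genomic imprints, was at 4.13, 3.58 and 3.15 FPKM in RNA-seq and 0.968, 0.721 and 1.10 FPKM in RNC-seq of Igf2bp3+/-. In Igf2bp3-/- Zfp184, Zfp445, Zfp800 and Zfp106 were lower too, with loadings of -1.34, -1.25, -1.38 and -1.03, while Zfp687 was at -0.55 and did not pass (adjusted p = 0.311 in limma). The difference of Zfp687 between genotypes is the TE difference given above, which did not pass.

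Zfp644, a partner of the G9a and GLP histone methyltransferases, had the highest loading in Igf2bp3+/-, and Zfp248 and Zfp87 exceeded it in Igf2bp3-/-. It was at 16.2, 15.4 and 10.8 FPKM in Igf2bp3+/- RNA-seq and 47.0, 29.7 and 34.4 FPKM in RNC-seq, a loading of 1.38 ± 0.21 (SE, limma adjusted p = 0.00134). In Igf2bp3-/- it was at 17.9, 19.2 and 23.5 FPKM against 46.5, 28.4 and 54.7 FPKM, a loading of 1.05 ± 0.25 (SE, limma adjusted p = 0.0179). All RNC-seq values of Zfp644 exceeded all its RNA-seq values.

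Zfp87 was at 10.4, 8.91 and 9.35 FPKM in Igf2bp3+/- RNA-seq and 27.7, 22.0 and 18.2 FPKM in RNC-seq, a loading of 1.22 ± 0.17 (SE), and 10.4% of its exon bases are shared with Gm26965 on the same strand. Zfp637 (1.18 ± 0.18, SE) and Zfp560 (0.98 ± 0.17, SE) came next, and all 4 were higher in Igf2bp3-/- as well, with loadings of 1.05, 1.16, 0.75 and 0.63. The others of the highest 8 were Zfp423 (0.95), a regulator of neural and fat cell fate, Zfp248 (0.94), Zfp735 (0.90) and Zfp809 (0.85). Of these, Zfp248 passed in Igf2bp3-/- too (1.19), and Zfp423, Zfp735 and Zfp809 did not (0.54, 0.53 and -0.20).

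**Figure D3:**
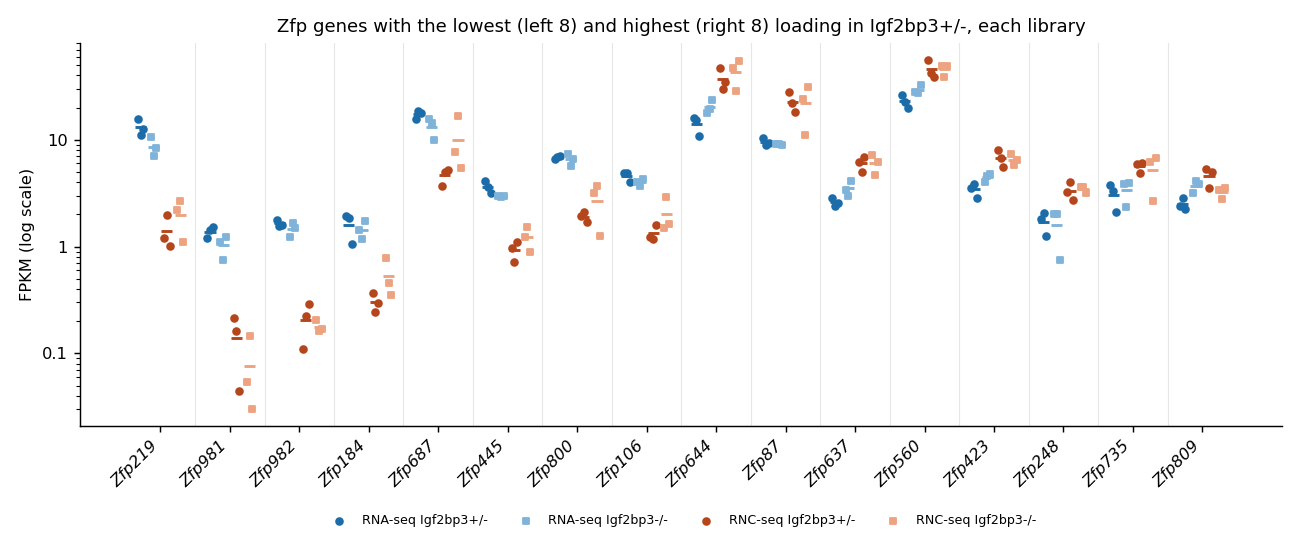
FPKM on a log axis, in each library, of the 8 Zfp genes with the lowest and the 8 with the highest loading in Igf2bp3+/- among those that passed the test, with a point for each library, a short bar for the group mean, circles for Igf2bp3+/- and squares for Igf2bp3-/-. Orange RNC-seq points lie below the blue RNA-seq points on the left, by the most for Zfp219, Zfp981 and Zfp982, and above them on the right, except for overlaps in Igf2bp3-/- such as those of Zfp687, Zfp735 and Zfp809.

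**Figure D4:**
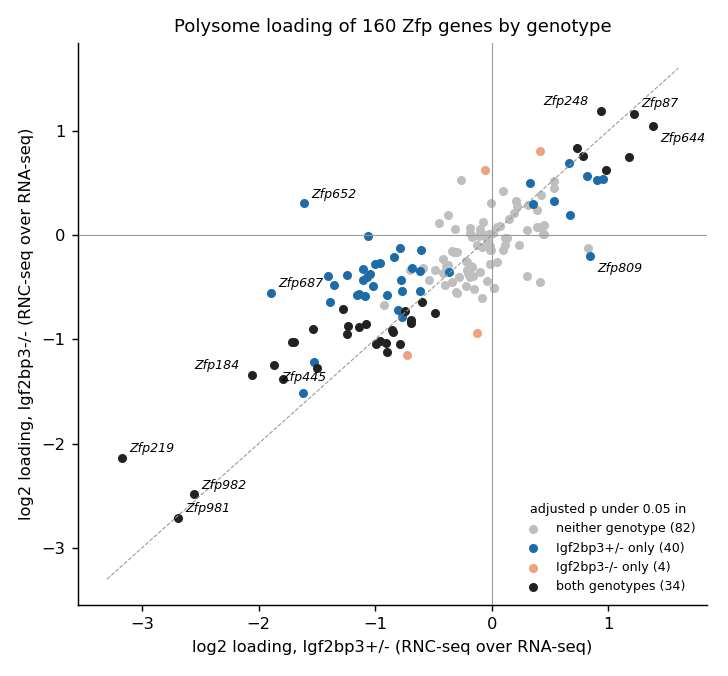
Log2 loading of the 160 Zfp genes in Igf2bp3+/- (horizontal) against Igf2bp3-/- (vertical), coloured by the genotype in which the limma adjusted p was under 0.05, with a dashed line of equal values. Of the 160, 34 passed in both genotypes, 40 in Igf2bp3+/- alone, 4 in Igf2bp3-/- alone and 82 in neither, and Zfp652 lies farthest above the line. Calls were also fewer in Igf2bp3-/- over all genes, with 11.0% lower and 10.2% higher against 25.2% and 18.2% in Igf2bp3+/-.

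The loading of a member in one genotype went with its loading in the other (Spearman's rho 0.79 over the 160 genes, and 0.80 over all 18414 genes), from libraries that the genotypes do not share. The sign was the same for 135 of the 160. Genes are not independent replicates, and no p is given for this or for the relations below.

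Coding length went with loading among the members. Spearman's rho between coding length and the loading in Igf2bp3+/- was -0.45 over the 157 members with a frame and -0.54 over 12835 protein-coding genes, while the number of fingers (-0.03), the count of start codons upstream of the frame (0.04) and the length of the 3' UTR (-0.15) showed weaker relations. Members had a median coding length of 1737 bases against 1323 for all protein-coding genes tested.

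Among the 20 members of 3000 or more coding bases, 17 were lower in Igf2bp3+/- and 2 higher, where 71.1% of all protein-coding genes of that length were lower and 2.45% higher, with a median loading of -1.10 for the members against -1.12. The 2 higher were Zfp644 and Zfp423. Among the 24 members under 1200 coding bases, 2 were lower (Zfp664 and Zfp982) and 3 higher, where 13.6% of all genes of that length were lower and 28.9% higher, with a median of 0.05 for the members against 0.17. From 1200 to 1800 bases the medians were -0.14 against -0.25, and from 1800 to 3000 bases -0.34 against -0.55. The members' median lay above that of all genes of like length in the 3 longer classes and below it in the shortest. In Igf2bp3-/- the order differed, with members at 0.03, -0.26, -0.38 and -0.56 from the shortest class to the longest and all genes at 0.16, -0.18, -0.38 and -0.68.

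**Figure D5:**
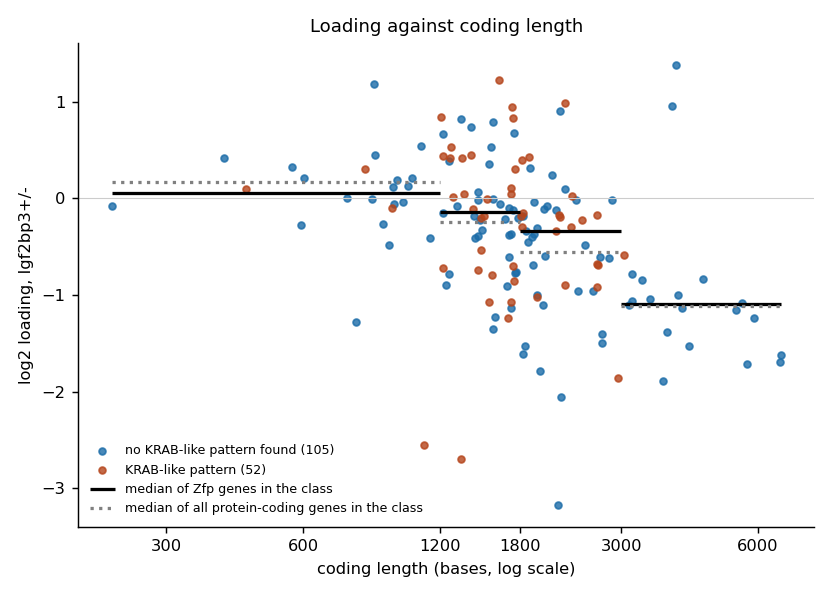
Log2 loading in Igf2bp3+/- against coding length on a log axis for the 157 Zfp genes with a frame, orange for the KRAB-like pattern, with a solid line for the members' median in each class of coding length and a dotted line for the median of all protein-coding genes. Both medians fall with coding length, from 0.05 and 0.17 in the shortest class to -1.10 and -1.12 in the longest, while Zfp219, Zfp981 and Zfp982 lie far below the line of their class.

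The genotype difference in TE also went with coding length. The 20 long members had a median TE difference of 0.61, with 17 of the 20 above 0, and all protein-coding genes of that length a median of 0.40, with 83.5% above 0. Without Igf2bp3-/- replicate 2 these medians were 0.32 and 0.25. The TE difference and the loading in Igf2bp3+/- share libraries, so that a low value of the latter raises the former. In the shorter classes the members' medians were 0.04, -0.02 and -0.02 from the shortest up, and those of all genes -0.03, 0.09 and 0.17. From 1800 to 3000 bases 24 of 51 members lay above 0, against 67.4% of all genes.

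Members with and without the KRAB-like pattern were set side by side. Of the 52 members with it 13 were lower and 4 higher in Igf2bp3+/-, and of the 105 without it 44 were lower and 12 higher, beside 25.2% lower and 18.2% higher among all genes. The shares of all genes here and by role below take in genes under 1 FPKM. Of those at 1 FPKM or more, 31.3% were lower and 23.7% higher in Igf2bp3+/-. Median loadings were -0.18 with the pattern and -0.34 without it. In Igf2bp3-/- the medians were -0.32 and -0.28, in the opposite order. Of the 7 members with the SCAN-like pattern, 6 were lower in Igf2bp3+/- and 5 in Igf2bp3-/-, with medians of -0.69 and -0.75 and a median coding length of 1923 bases, beside 25.2% and 11.0% of all genes lower.

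By known role, genes that silence retroelements or guard imprints come first, beside 160 of 323 Zfp symbols kept at this limit. Of 8 genes listed, 7 were in the table and 4 were members: Zfp819 at a mean of 12.8 FPKM in RNA-seq, Zfp57, which protects imprints, at 7.06 FPKM, Zfp445 at 3.29 FPKM and Zfp809 at 3.12 FPKM. Zfp568, Zfp708 and Zfp932 lay at 0.0800, 0.362 and 0.202 FPKM and were not members. In Igf2bp3+/- Zfp445 was lower in loading and Zfp809 higher, and Zfp57 (0.42) and Zfp819 (0.39) did not pass.

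Of the 8 germ cell members, Zfp318 (-1.70) and Zfp541 (-1.14) were lower in loading in Igf2bp3+/-, with limma adjusted p of 0.000567 and 0.00173, and 0 were higher, beside 25.2% lower and 18.2% higher among all genes. Zfp318 passed in Igf2bp3-/- as well (-1.03), and Zfp541 did not (-0.57). Zfp35, Zfp37, Zfp39, Zfp105 and Zfp474 lay between -0.34 and 0.21 and Zfp42 at 0.45, none past the test.

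Of 14 listed genes of chromatin and transcription 9 were members, and 6 of the 9 were lower in loading in Igf2bp3+/- (Zfp687, Zfp592, Zfp638, Zfp217, Zfp516 and Zfp335), Zfp644 was higher, and Zfp143 and Zfp410 did not pass. Among all genes 25.2% were lower and 18.2% higher. Coding length, which went with loading and with the TE difference as given above, was not matched here. Of all protein-coding genes of 3000 or more coding bases, 71.1% were lower in Igf2bp3+/-, and their median TE difference was 0.40. The median of the 9 was -1.04. In Igf2bp3-/- 1 was lower (Zfp638, -0.95) and 1 higher (Zfp644), beside 11.0% and 10.2% of all genes, and the median was -0.43. Their median TE difference was 0.67, with 0 past the test.

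Of 10 listed genes that act on RNA, ribosomes, ubiquitin or the spindle 8 were members. In Igf2bp3+/- 3 of the 8 were lower, beside 25.2% of all genes and 36.2% of the 160 members. They were Zfp106, which binds RNA, Zfp598 (-1.41), the ubiquitin ligase that marks collided ribosomes, and Zfp91 (-1.14), a ubiquitin ligase. Zfp91 (-0.88) and Zfp106, beside 11.0% of all genes, passed as lower in Igf2bp3-/-, where Zfp593, a ribosome assembly factor with a near-identical copy elsewhere, was higher (0.80). Zfp207, a spindle protein, and Zfp330, a nucleolar protein, were the most abundant at 24.6 and 32.4 FPKM in RNA-seq, and Zfp346 and Zfp622 lay at 2.47 and 1.53 FPKM. None of these 4 passed in either genotype.

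The corepressors that KRAB members work with were measured as well. The shares of all genes given beside them are not matched for coding length. Of 20 listed genes 19 were in the table, 0 passed the genotype tests in RNA-seq, RNC-seq or TE, and 13 were lower and 0 higher in loading in Igf2bp3+/-, beside 25.2% and 18.2% of all genes, with a median of -0.95. Trim28, the partner of the KRAB domain, was at a mean of 49.3 FPKM in RNA-seq with a loading of -0.84 ± 0.17 (SE) in Igf2bp3+/-. Setdb1, the histone methyltransferase it recruits, had a loading of -0.95 ± 0.18 (SE). In Igf2bp3-/- 8 of the 19 were lower, beside 11.0% of all genes, and Trim28 and Setdb1 did not pass (limma adjusted p of 0.146 and 0.0512).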

How the data were processed

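The authors deposited a table of FPKM for the 12 libraries. Per the labels and the paper's methods, they had trimmed reads (Trim Galore 0.6.6), mapped them to GRCm38 (HISAT2) and estimated transcript levels (StringTie 2.1.7). The annotation release and the use of strand are not given in the sources used here. Of 28668 symbols, 25 turned into dates were left out. FPKM was not rescaled. Values were put on the log2(FPKM + 0.1) scale, and the moderated test of limma 3.58.1 (R 4.3.3) with an intensity trend was run two-sided over all genes with a mean above 0.1 in the assays compared, and p-values were adjusted by Benjamini-Hochberg over them. The pseudocount of 0.1 shrinks changes in genes of low FPKM. Genotype was tested within RNA-seq and within RNC-seq, TE as the interaction over 12 libraries, and loading as RNC-seq minus RNA-seq within a genotype. The members, gene lists and classes were chosen with earlier results of these data known. Genes were named by rule: the 10 most abundant, those around the limit, the smallest p of each direction for genotype, the 8 lowest and 8 highest loadings, the 2 largest clusters and the listed roles. Coding lengths, positions, proteins, sequences and exon overlaps come from GENCODE M21 for GRCm38, in which all 160 genes were found. Copies were found with BLAST 2.17.0 at 95% identity over 50% of a transcript, a limit of 10% set which overlaps are named, and finger, KRAB and SCAN patterns were searched in the translated frames. The table holds no counts, and fragments were approximated from the lowest step of FPKM times transcript length, so that no counting interval is given. On simulated data with 18414 to 20352 genes, between 77% and 91% of 4-fold changes were recovered, and of 2-fold changes 40% in RNA-seq, 34% in RNC-seq and 18% in TE. For loading, 33% of 2-fold changes were recovered in Igf2bp3+/- and 31% in Igf2bp3-/-. The changed genes, 100 of each size, all had 1 FPKM or more in both assays, as 15 members do not in RNC-seq. Many more genes than these were called in loading, so that recovery there may differ. Alternatives were another pseudocount, filter, scaling or weighting, a replicate block, each replicate left out, a joint fit and other choices of members.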

Additional observations from a re-analysis of the deposited data

How the results depend on the processing

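No member passed the genotype or TE tests under any refit (another pseudocount, filter, scaling, weights, replicate block, joint fit or a replicate left out), with 0 in every case. With an unadjusted p under 0.05 and a log2 change over 1.5 in place of the adjusted p, 1 member passed in RNC-seq and 1 in TE, both higher (Zfp652), and 13 in loading in Igf2bp3+/- (13 lower, 0 higher) and 4 in Igf2bp3-/- (4 lower, 0 higher). Counts here without a share of all genes beside them describe the members only. By the ratio of mean FPKM, 34 members passed 1.5-fold in TE, 28 higher and 6 lower. Leaving out a replicate gave 43 to 59 loading calls in Igf2bp3+/- (6 to 19 higher, 37 to 40 lower) and 0 to 34 in Igf2bp3-/- (0 to 7 higher, 0 to 27 lower), with fewer samples in the fit. With no filter on low FPKM, 24 members passed in Igf2bp3-/-, 4 of them higher; the cause was not tested. Same-numbered RNA-seq and RNC-seq may come from the same extract, which the labels do not state. Their deviations from the group means correlated by -0.105 to 0.262, above 0.1 in 4 of 6 pairs, and those of same-numbered libraries across genotypes by -0.117 to 0.255, so that the check did not settle the pairing. With the replicate block, 68 members passed in Igf2bp3+/- and 38 in Igf2bp3-/-, and 0 in RNA-seq, RNC-seq and TE. Of all genes 24.1% were then lower and 18.0% higher in Igf2bp3+/-, and 11.4% and 10.9% in Igf2bp3-/-. Leaving out members with copies, overlaps or a pseudogene label, a choice made after seeing the data, gave 60 loading calls in Igf2bp3+/- and 31 in Igf2bp3-/-. These come from fewer members, so that they cannot be set against the counts of all 160. Among single genes named for their p or loading, 380 of 398 values under the alternatives kept direction and side of the threshold and 18 lost the call, all in loading in Igf2bp3-/-, where leaving out replicate 1 or 3 took it from all 8 genes. The genes named for genotype or TE had no call to lose, so that the 380 include values that stayed without a call. Members with few fragments in RNC-seq limit the size of the lowest loadings.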

Other observations

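The 163 Zfp symbols below the limit had a median RNA-seq level of 0.172 FPKM. Of these, 87 could be tested for loading, and in Igf2bp3+/- 13 were lower and 1 higher, beside 25.2% and 18.2% of all genes. These shares are not matched for level. Among genes at 1 FPKM or more 31.3% were lower and 23.7% higher, so that the shares among genes of lower level were smaller. None passed the genotype tests in RNA-seq, RNC-seq or TE.

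A further 38 symbols begin with Zfp and end in letters or other marks, so that the rule did not take them. Of the 27 tested for loading, 8 were lower in Igf2bp3+/- and 0 higher, beside 25.2% and 18.2% of all genes, again not matched for level. Zfp280d had a loading of -1.95 ± 0.18 (SE, limma adjusted p = 0.000153) at 2.91 FPKM in RNA-seq. Zfp512b was at 11.6 FPKM with a loading of -1.81 ± 0.17 (SE). Zfp385a (25.3 FPKM) and Zfp36l1 (10.7 FPKM), which binds AU-rich mRNA, had loadings of -1.27 and -1.37. In Igf2bp3-/- 4 of the 27 were lower, beside 11.0% of all genes.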
